A study of Homo sapiens with 2 samples.

Results

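Calls at pseudogenes were described, that is, start positions of nascent transcription that lay within 500 bp of an end of a gene annotated as pseudogene or transcribed_pseudogene and pointed into that gene. A call past the opposite end of a short gene runs away from it and was not counted. Members were 257 genes, out of 10647 genes of any biotype with such a call and out of 16269 listed pseudogenes on chromosomes 1 to 22 and X. The biotype pseudogene held 95 of them and the biotype transcribed_pseudogene, which the gene table gives to pseudogenes with an annotated transcript, held 162. The calls come from PRO-cap of HUDEP-2, an immortalised human erythroid progenitor line, wild-type and without a treatment named in the labels, with 2 biological replicates of this 1 group. In a run-on reaction nuclei extended their nascent RNA with biotinylated nucleotides, and the captured RNA was read from its capped 5' end. The deposited lists hold 26395 calls of 1 base, 13229 forward and 13166 reverse, each with a score of 0 and no value per replicate. The depth behind a call is therefore unknown, no spread between replicates can be given, and intervals below are 95% Wilson intervals that cover counting error only.

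A pseudogene is a copy or relic of a gene that no longer codes for the product of its parent. Processed copies arise when a messenger RNA is reverse transcribed and inserted elsewhere, and they arrive without the parent's promoter, whereas duplicated copies arise from genomic DNA and can carry a promoter with them. Many entries of the table are copies of small RNA genes, such as those of the spliceosome, whose promoters are recognised by specialised factors, and a transcribed pseudogene can also start at a bidirectional promoter that it shares with a neighbour.

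Sequences are shown for 4 arrangements that recur below, from the RefSeq promoter table of GRCh38.p14, the same assembly as hg38. Capitals mark the called base and the base next to it downstream, and lower case marks the rest. The first pair of sequences runs over the 250 bases upstream of a coding gene and is read in the direction of the pseudogene, since the pseudogene starts on the opposite strand of that promoter. FHL1P1, a copy of the LIM domain gene FHL1, starts upstream of SEC62, a gene of protein translocation into the endoplasmic reticulum (chr3:169966557-169966806, reverse strand). CUTALP, a relative of the divalent cation tolerance gene CUTA, starts upstream of the proteasome chaperone gene PSMD5 (chr9:120842923-120843172, forward strand).
FHL1P1 upstream of SEC62: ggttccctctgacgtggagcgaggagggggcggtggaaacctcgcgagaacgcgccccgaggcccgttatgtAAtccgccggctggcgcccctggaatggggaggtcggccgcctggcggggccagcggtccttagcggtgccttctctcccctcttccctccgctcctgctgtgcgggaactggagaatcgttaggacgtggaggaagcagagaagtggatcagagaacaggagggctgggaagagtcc
CUTALP upstream of PSMD5: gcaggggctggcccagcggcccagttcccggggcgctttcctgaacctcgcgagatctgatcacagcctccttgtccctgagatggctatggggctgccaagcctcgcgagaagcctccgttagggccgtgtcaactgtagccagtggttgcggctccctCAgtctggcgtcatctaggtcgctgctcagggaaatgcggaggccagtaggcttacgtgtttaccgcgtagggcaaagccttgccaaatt
The next line shows a call that lies at the start of a coding gene and near an end of a pseudogene, with 60 bases before and 10 after the coding start. TPM3P9, a tropomyosin copy, shares this call with the zinc finger gene ZNF761 (chr19:53431924-53431993, forward strand).
TPM3P9 and ZNF761: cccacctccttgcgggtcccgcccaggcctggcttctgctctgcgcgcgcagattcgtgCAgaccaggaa
The following 300 bases hold a divergent pair of calls that point into 2 pseudogenes and are read on the forward strand (chr7:100335815-100336114). The capitals near the left end belong to the call of PMS2P1, a copy of the mismatch repair gene PMS2, which runs to the left, so that its called base is the second of the pair. Those at the right end belong to STAG3L5P, a copy of the cohesin gene STAG3, which runs to the right. The PMS2P1 call lies 438 bp inside the annotated end of that gene. The STAG3L5P call lies 34 bp inside its gene and also starts the long noncoding RNA gene STAG3L5P-PVRIG2P-PILRB.
PMS2P1 and STAG3L5P: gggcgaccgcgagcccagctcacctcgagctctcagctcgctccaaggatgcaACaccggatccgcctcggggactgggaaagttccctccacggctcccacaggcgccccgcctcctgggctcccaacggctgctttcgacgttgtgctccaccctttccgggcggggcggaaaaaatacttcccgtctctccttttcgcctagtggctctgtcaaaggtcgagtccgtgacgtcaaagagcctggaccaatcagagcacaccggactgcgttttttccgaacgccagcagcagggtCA
The last lines show the starts of 4 parents whose copies were called at the copy's end, with 40 bases before and 10 after the annotated start of the parent: the ribosomal protein genes RPS28 (chr19:8321456-8321505, forward), RPL10A (chr6:35468361-35468410, forward) and RPL27A (chr11:8682752-8682801, forward), and EEF1A1, the gene of a translation elongation factor (chr6:73521023-73521072, reverse).
RPS28: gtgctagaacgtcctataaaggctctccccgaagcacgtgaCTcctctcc
RPL10A: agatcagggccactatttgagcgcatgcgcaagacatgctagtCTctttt
RPL27A: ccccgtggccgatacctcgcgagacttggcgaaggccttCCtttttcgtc
EEF1A1: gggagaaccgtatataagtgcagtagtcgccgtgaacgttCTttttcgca

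An inward call was present at 95 of 15048 genes of the biotype pseudogene, a called share of 0.631% (0.517 to 0.771%), and at 162 of 1221 of the biotype transcribed_pseudogene, a share of 13.3% (11.5 to 15.3%). Over both biotypes the called share was 1.58%, against 18.2% over all 58419 genes of the table, 41.4% of protein-coding genes and 9.53% of long noncoding RNA genes. These shares belong to the choice of members and were not tested. A call can lie near a gene end without belonging to it, so the direction of all calls in the same windows was counted: 271 of 443 calls (61.2%, 56.6 to 65.6%) pointed into the pseudogene. Inside a short gene the windows of both ends overlap, and a call there can be inward from 1 end and outward from the other. Such calls were counted as inward only. This raises the inward share, which therefore cannot show whether calls belong to the gene. The inward share was 99 of 152 calls (65.1%) at the biotype pseudogene and 177 of 300 (59.0%) at the biotype transcribed_pseudogene, some calls being counted at both.

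Most members lay away from coding genes. By the call nearest to the gene end, 193 members were over 1000 bp from the nearest end of a protein-coding gene and 64 were under it. The share under 1000 bp was 22 of 95 members (23.2%) for pseudogene and 42 of 162 (25.9%) for transcribed_pseudogene, and the biotypes did not pass the test of a difference (Fisher's exact test, two-sided, adjusted p = 0.739). Among all listed genes the distance was taken from either gene end instead of the call, so those shares do not compare directly. An end lay under 1000 bp from a coding gene end for 355 of 15048 pseudogene entries (2.36%) and 146 of 1221 transcribed_pseudogene entries (12%). Of those entries 22 (6.2%) and 53 (36.3%) were called, against 73 of 14693 (0.497%) and 109 of 1075 (10.1%) where both ends were farther away. The members just inside the 500 bp window had their nearest call 487 bp (GGCTP1 and RPS12P29) and 492 bp (RNU6-1276P) from the gene end, and the nearest genes outside it were MARCKSL1P2 at 501 bp, NDUFAF4P1 at 505 bp and RNU6-722P at 508 bp. At the limit of 1000 bp, FABP5P3 at 776 bp, TPI1P2 at 939 bp and TMEM198B at 984 bp fell under it, and PPIEL at 1145 bp, H1-12P at 1149 bp and SMPD4BP at 1215 bp fell over it.

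The position of the call was set out for the 4 classes that biotype and distance make. Positions are given as an offset, with 0 at the outermost base of the gene, positive values inside it and negative values before it. Transcribed_pseudogene members over 1000 bp from coding genes (n = 120) had a median offset of 21 bp, with the middle of the distribution running from 0.0 to 57.5 bp, so that calls lay at or shortly inside the annotated end. The 42 members of this biotype under 1000 bp had a median of 1 bp. Pseudogene members over 1000 bp (n = 73) had a median of -2 bp, while the 22 under 1000 bp had a median of -229.5 bp, mostly calls before the gene. A call within 50 bp of the end was found for 60.5% of transcribed_pseudogene and 43.2% of pseudogene members.

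**Figure D1:**
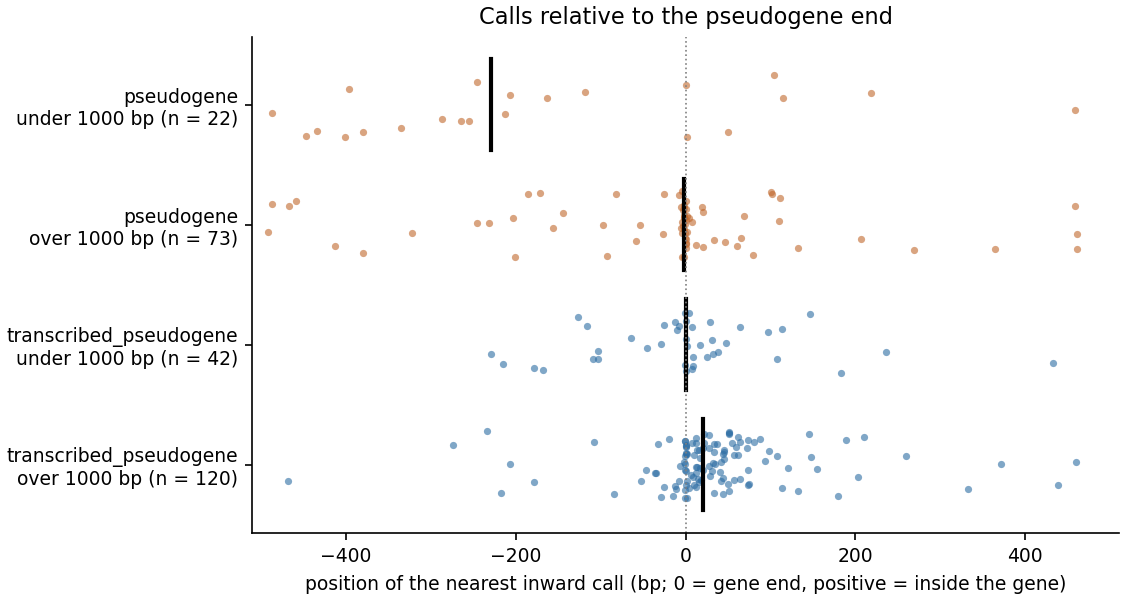
Position of the nearest inward call of each of 257 members relative to the gene end, in bp, with 0 at the end and positive values inside the gene; rows are the biotypes split by distance to a protein-coding gene end, points are genes with vertical scatter for display, and black bars are medians. The medians lie at -229.5 bp for the 22 pseudogene members under 1000 bp and between -2 and 21 bp in the other classes.

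A divergent partner, the nearest opposite-strand call at 0 to 300 bp upstream, was more frequent at transcribed pseudogenes. It was present for 89 of 162 transcribed_pseudogene members (54.9%, 47.3 to 62.4%) and 26 of 95 pseudogene members (27.4%, 19.4 to 37.1%), a difference of 27.6 percentage points (odds ratio 3.24; adjusted p = 5.2e-05 over 9 comparisons, two-sided Fisher's exact test). Partners lay at similar distances, with medians of 147 bp for transcribed_pseudogene and 159 bp for pseudogene members. The biotypes differ in length, with a median of 23770 bp for transcribed_pseudogene and 478 bp for pseudogene members. Among members over 1000 bp from coding genes and longer than 5000 bp, a partner was present for 60 of 107 transcribed_pseudogene (56.1%) and 4 of 7 pseudogene members (57.1%). Among those of over 200 to 5000 bp it was present for 8 of 13 (61.5%) and 7 of 37 (18.9%). Among members under 1000 bp from coding genes it was present for 21 of 42 (50%) and 11 of 22 (50%). The biotypes were not compared by a test in these subsets.

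The whole gene lay within the span of a protein-coding gene for 35 of 95 pseudogene members (36.8%, 27.8 to 46.9%) and 6 of 162 transcribed_pseudogene members (3.7%, 1.71 to 7.84%; odds ratio 0.0659; adjusted p = 4.01e-11, two-sided Fisher's exact test). All listed genes, called or not, showed the same direction, with 5043 of 15048 pseudogene entries (33.5%) and 139 of 1221 transcribed_pseudogene entries (11.4%) inside a coding gene. The called share of the biotype pseudogene was 0.694% (0.499 to 0.964%) inside coding genes and 0.6% (0.466 to 0.771%) elsewhere. For the biotype transcribed_pseudogene it was 4.32% (1.99 to 9.1%) inside and 14.4% (12.5 to 16.6%) elsewhere. A call within 10 bp of the gene end (39 of 162 against 32 of 95 members, adjusted p = 0.202) and a call that also starts another listed gene (17 of 162 against 18 of 95, adjusted p = 0.139) did not pass Fisher's exact test between biotypes.

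Members under and over 1000 bp did not pass the test of a difference in 3 measures that the distance does not fix. A divergent partner was present for 50% against 43.0% (adjusted p = 0.545 by the exact test), a call within 10 bp of the end for 23.4% against 29.0% (0.545), and a host coding gene for 17.2% against 15.5% (0.844). The call was also within 500 bp of an end of another listed gene, and pointing into it, for 22 of 64 members under 1000 bp and 13 of 193 over it. This difference follows from the definition, because such a gene can be a coding one only near its end: it was a coding gene for 19 of the 22 and for none of the 13. The contrast between near and far members differed between the biotypes for the call within 10 bp (adjusted p = 0.0156 over 3 measures, Zelen's exact test of equal odds ratios, two-sided) and for the partner (adjusted p = 0.0184). The offset behind the close call also chose the members, so the test of that measure is not independent of the choice. Among pseudogene members a close call was found for 2 of 22 under 1000 bp (9.09%) and 30 of 73 over it (41.1%), and among transcribed_pseudogene members for 13 of 42 (31.0%) and 26 of 120 (21.7%). A partner was found for 11 of 22 (50%) and 15 of 73 (20.5%) pseudogene members, and for 21 of 42 (50%) and 68 of 120 (56.7%) transcribed_pseudogene members. Without genes of 200 bp or shorter, neither difference passed the threshold of 0.05 (adjusted p = 0.111 for both by the same exact test). Both kept their direction on fewer pseudogene members. Of these, a partner was found for 8 of 16 under 1000 bp and 11 of 44 over it. A close call was found for 1 of 16 and 12 of 44.

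**Figure D2:**
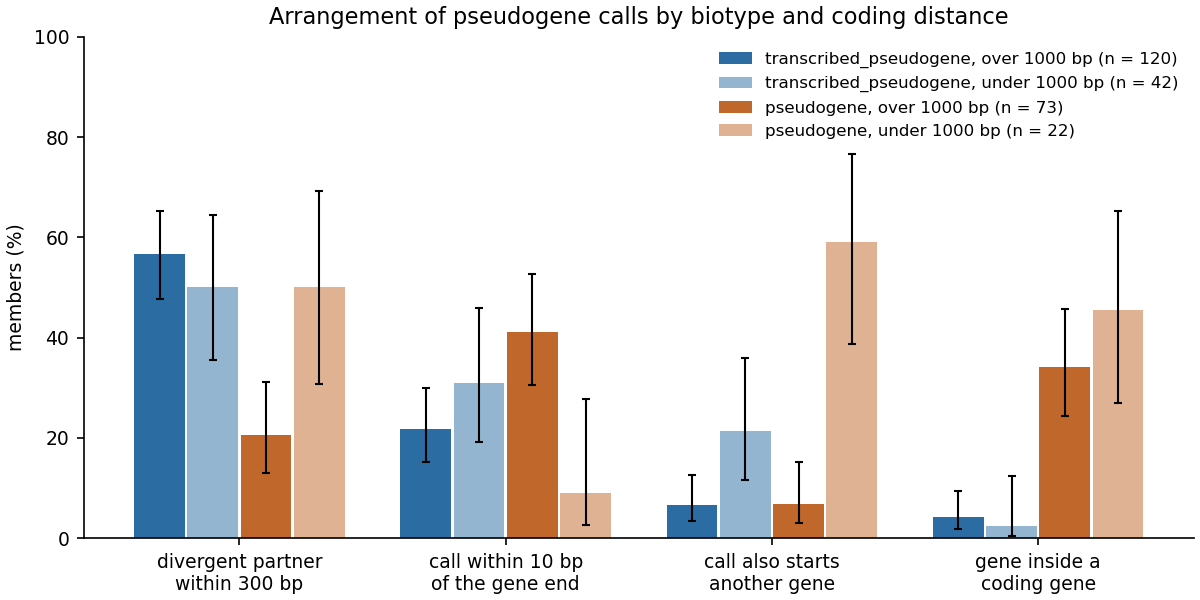
Share of members in percent, from 0 to 100, with a divergent partner within 300 bp, a call within 10 bp of the gene end, a call that also starts another gene, or a host coding gene; bars are the 4 classes of biotype and distance to a coding gene end, and error bars are 95% Wilson intervals. The 73 pseudogene members over 1000 bp have a partner in 20.5% and a close call in 41.1%, and the 120 transcribed_pseudogene members over 1000 bp in 56.7% and 21.7%.

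Members under 1000 bp fell into few arrangements with their coding neighbour. In 27 of 64 the divergent partner was itself a call at the start of a coding gene, that is, it lay within 500 bp of a coding gene end and pointed into that gene. This held for 17 of 42 transcribed_pseudogene and 10 of 22 pseudogene members. FHL1P1, printed above with SEC62, was called at an offset of 0 bp with its partner 75 bp away. CUTALP was called 8 bp inside its end and 151 bp from the PSMD5 call, and CATSPER2P1 7 bp inside and 146 bp from PDIA3, a disulphide isomerase gene. CHMP1B2P, on the X chromosome, was called 4 bp inside its end and 110 bp from TENT5D. These 4 are among the members chosen for a call near their end. Others of the 17 transcribed_pseudogene members lay farther from theirs, such as CIDECP1 at -229 bp and ZNF271P at 147 bp, and at the pseudogene member NEPNP the call 139 bp from that of GOPC lay 265 bp before the gene. These 3 were named after their values were seen.

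In 19 members, 11 pseudogene and 8 transcribed_pseudogene, the call itself lay within 500 bp of an end of a coding gene and pointed into it. The distance from these calls to the nearest coding gene end ran from 1 bp to 422 bp, the latter at TPTEP2. At RHOQP1 and RN7SL521P the partner lay at a coding gene as well. The call of TPM3P9 lay 9 bp inside its end and 1 bp from the ZNF761 end. The calls of COX6B1P5 and RNA5SP21 likewise lay 1 and 9 bp from the ends of HAUS3 and MIGA1, and at offsets of -213 and -246 bp from their own. The histone copies H2AC5P and H4C10P lay in the histone gene clusters of chromosome 6: the call of H2AC5P (50 bp inside) was 237 bp from that of H2BC3, and the call of H4C10P (115 bp inside) was also within 500 bp of an end of H2BC13. The remaining 20 of the 64 had a partner at no coding gene (4 members) or no partner (16 members). RNA5SP221 was among the former, called 255 bp before its end with a partner at 112 bp. Among the latter were DHRS4L1, called 2 bp inside its end and 678 bp from an end of DHRS4L2, PPP5D1P, called at 0 bp and 158 bp from an end of the calmodulin gene CALM3, and STUB1-DT, called 8 bp before its end and 625 bp from the ubiquitin ligase gene STUB1.

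Transcribed pseudogenes over 1000 bp from coding genes were mostly long, 107 of 120 over 5000 bp, with calls at or near their end. The 12 whose calls lay nearest the end (ties by alphabet, numbered loci left out) had offsets between -1 and 1 bp: FAM86HP, OVOS1P and PMS2P5 at 0 bp, and C22orf46P, EP400P1, FAUP4, FRG1HP, GTF2IP13, GTF2IRD1P1, LRP5L, PMS2P3 and TSTD3 at 1 bp to either side. Of these 12, 10 had a divergent partner. EP400P1, a copy of a chromatin remodeller gene, lay 3824 bp from EP400 itself on chromosome 12, with its partner 220 bp away. GTF2IRD1P1 on chromosome 7 was called at position 66844887 with a partner at 157 bp, and LRP5L, a truncated relative of the WNT coreceptor gene LRP5, at position 25405409 of chromosome 22 with a partner at 58 bp. CMAHP, the relic of the hydroxylase that makes N-glycolylneuraminic acid in other mammals, was called 51 bp inside its end with a partner at 53 bp, and the calcium channel gene ORAI1, which this table lists as transcribed_pseudogene, 16 bp inside its end; both were named after their values were seen.

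Among far members of both biotypes, partners started no listed gene by its outer ends in 55 of 83 cases (66.3%, 55.6 to 75.5%), another pseudogene in 23 (27.7%, 19.2 to 38.2%) and a long noncoding RNA in 6, and these classes can overlap. Of the 55 members, CFL1P1, DBIL5P, INGX, LOC107985098 and SMPD4BP had their call in the promoter window of a coding gene whose outer end is farther away. For transcribed_pseudogene members alone the counts were 42, 22 and 5 of 68. Counted by position, 11 call pairs had on each strand a call within 500 bp of a pseudogene end and pointing into it. They involved 24 members. This pattern was found after the values were seen. At PMS2P1 and ANKRD18CP the paired call lay 438 and 398 bp inside the end, and ANKRD18CP had another call nearer its end, at 45 bp. The distance between the calls ran from 64 to 251 bp, with a median of 176 bp. Copies of the same gene neighbours recurred. A copy of the septin gene SEPTIN7 and a copy of GTF2I, the gene of a general transcription factor, formed a pair on chromosome 1 (GTF2IP20 and SEPTIN7P13, 182 bp), on chromosome 4 (GTF2IP12 and SEPTIN7P14, 190 bp) and on chromosome 7 (GTF2IP13 and SEPTIN7P2, 176 bp). A copy of PMS2 and a copy of STAG3 formed 3 pairs on chromosome 7: PMS2P5 with STAG3L2 (201 bp), PMS2P1 with STAG3L5P (244 bp, printed above) and PMS2P4 with STAG3L4 (251 bp). On chromosome 10 a copy of the ribosome assembly gene BMS1 and a copy of the glutamate dehydrogenase gene GLUD1 formed 2 pairs, GLUD1P2 with BMS1P1 (75 bp) and GLUD1P3 with BMS1P4 (113 bp).

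**Figure D3:**
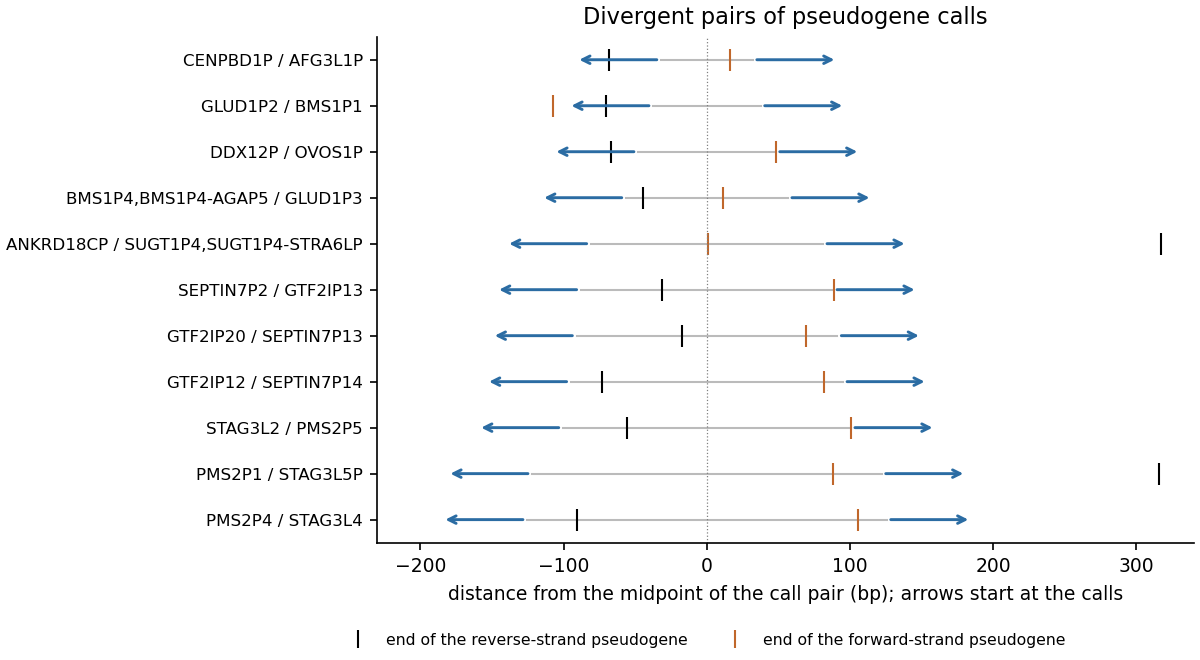
Each row is a divergent pair of calls that each point into a pseudogene within 500 bp of its end, drawn in bp from the midpoint of the pair. Arrows start at the calls and point the way of transcription. Ticks mark the annotated ends of the pseudogenes entered by the reverse-strand call (black) and the forward-strand call (orange). The calls of the 11 pairs are 64 to 251 bp apart, and most gene ends lie between or near the calls, except those of PMS2P1 and ANKRD18CP.

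These copies lie in duplicated sequence, where a read of one copy can match another, so the pairs are uncertain as separate observations. Called were 4 of 15 listed SEPTIN7 copies, 3 of 20 GTF2I copies, 4 of 14 PMS2 copies and 4 of 5 STAG3L genes. For GLUD1 it was 2 of 6 copies and for BMS1 6 of 23 entries, which include readthrough entries with the same call. Over all listed genes the called share was 13.3% for transcribed_pseudogene and 0.631% for pseudogene. These families were picked after their pairs were seen, and whether reads of different copies were told apart was not tested. The other 3 pairs were DDX12P with OVOS1P (96 bp), CENPBD1P with AFG3L1P (64 bp), and ANKRD18CP with SUGT1P4 and its readthrough entry (162 bp). AFG3L1P, a relic of a mitochondrial protease gene, was called 16 bp inside its end.

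Pseudogene members over 1000 bp from coding genes were short. Of all 95 pseudogene members 35 were 200 bp or shorter (36.8%, 27.8 to 46.9%), against 3077 of 15048 listed (20.4%), and none of the transcribed_pseudogene members was (0 of 162, which allows a share of up to 1.85%). Over 1000 bp from coding genes, 18 of the 29 short ones (62.1%) were called within 10 bp of their end and 4 (13.8%) had a divergent partner. Among them were copies of the spliceosomal RNAs U1, U4 and U5 and of the U7 RNA. RNU1-133P was called 1 bp inside its end on chromosome 2, RNU4-50P, RNU5E-4P and RNU7-13P 2 bp from theirs, RNU5A-8P and RNU5F-4P 4 bp before theirs, RNU1-14P 3 bp and RNU1-89P 4 bp before theirs. The 4 called copies of U6, a polymerase III transcript, had calls 92, 380, 413 and 492 bp before the gene (RNU6-835P, RNU6-781P, RNU6-181P and RNU6-1276P). Of 1791 listed spliceosomal RNA copies 14 were called (0.782%, 0.466 to 1.31%), 10 of them within 10 bp and 1 with a partner. The called share was 0.631% over all entries of the biotype pseudogene and 1.14% over those of 200 bp or shorter. Both shares lie within that interval.

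Those entries named as U1 variants that have the biotype pseudogene were called in 5 of 8 cases (62.5%, 30.6 to 86.3%), against 0.631% of the whole biotype. This group was chosen after values were seen. U1 variants listed with another biotype, such as RNVU1-3 (snRNA), are not counted here. RNVU1-34 on chromosome 17 and RNVU1-22 on chromosome 1 were called 1 bp before their ends, RNVU1-21 2 bp inside, RNVU1-2 12 bp inside and RNVU1-23 246 bp before. RNVU1-22, RNVU1-21 and RNVU1-2 each had a divergent partner, 281, 285 and 283 bp upstream of the call.

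Members with a parent matched by symbol were set beside that parent; whether they are processed or duplicated copies was not examined. Among pseudogene members over 1000 bp from coding genes, longer than 200 bp and with a parent matched by symbol (28 genes), 12 were called within 10 bp of the end. RPS26P3, a copy of the ribosomal protein gene RPS26 inside PTPRD on chromosome 9, was called at the outermost base of its lower end, position 9090874. RPS28P4 and RPL10AP6 were called 2 bp before their ends inside ARMC9 and PTPRG, RPL27AP6 5 bp before its end, and EEF1A1P6 1 bp before its end at position 22512063 of chromosome 7. SLC7A5P1 and CCZ1P1 were called at 0 bp and had partners at 124 and 35 bp, the only 2 of the 12 with a partner. Neither call is that of the copy alone. The SLC7A5P1 call is also nearest for SMG1P2. The CCZ1P1 call is also nearest for CCZ1P-OR7E38P and starts the long noncoding RNA gene CZ1P-ASNS. YBX1P1, UQCRFS1P1, NASPP1 and SLC2A3P4 were also among the 12, at -2, 7, 4 and 0 bp. In 11 of the 12 the parent was called, in 10 of these within 10 bp of the parent's own end and in 5 with a divergent partner. RPS26 is the exception, with its nearest call 228 bp inside, and CCZ1 had no call in the window. Of the other 16, the parent was called in 10, within 10 bp in 5 and with a partner in 6. In the whole group the parent was called for 21 of 28. Called parents were common among listed genes too. Of the biotype pseudogene, 5739 entries had a called parent and 1781 a parent without a call.

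Such copies resemble their parents in sequence, and how reads that match both were assigned is not stated, so whether the calls come from the copy or from reads of the parent was not tested. Of the copies listed for a parent, 1 of 59 was called for RPS26, 1 of 49 for EEF1A1, 1 of 13 for RPL10A, 1 of 9 for RPS28 and 1 of 8 for RPL27A, but 1 of 3 for UQCRFS1 and SLC2A3, 2 of 2 for SLC7A5 and the only copy for NASP and CCZ1. Over all listed genes of the biotype pseudogene, the called share was 24 of 5739 (0.418%, 0.281 to 0.622%) where the parent was called and 9 of 1781 (0.505%, 0.266 to 0.958%) where it was not. For the biotype transcribed_pseudogene the shares were 45 of 296 (15.2%) and 25 of 212 (11.8%). None of the 4 parent starts printed above has C followed by A in capitals: the marked bases are CT in RPS28, RPL10A and EEF1A1 and CC in RPL27A.

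**Figure D4:**
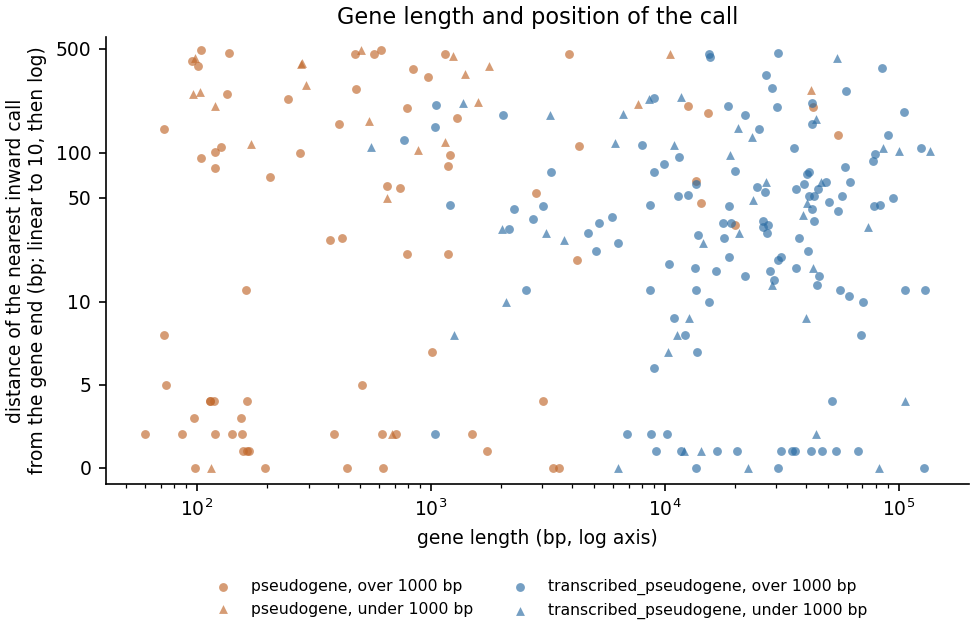
Distance of the nearest inward call from the gene end in bp (vertical, linear to 10 and log beyond) against gene length in bp (horizontal, log); each point is a member, coloured by biotype, with circles over and triangles under 1000 bp from a coding gene end. Pseudogene members have a median length of 478 bp and transcribed_pseudogene members of 23770 bp, and close calls occur in both ranges.

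Families of listed pseudogenes ranged widely in called share, without a test of the differences, and are read against 0.631% for the biotype pseudogene and 13.3% for transcribed_pseudogene. Cytosolic ribosomal protein copies were called in 7 of 1985 cases (0.353%, 0.171 to 0.726%), RPS2P32 and RPS12P29 among them, and mitochondrial ribosomal protein copies in 2 of 105 (MRPL45P2 and MRPS31P5, both transcribed_pseudogene). Copies of 7SL, 7SK and Y RNA genes were called in 4 of 1048 cases, all 4 under 1000 bp from a coding gene, and 5S RNA copies, a group chosen after values were seen, in 6 of 504 with no call within 10 bp. Entries named as transfer RNA genes, also grouped after values were seen, were called in 3 of 74 (4.05%, 1.39 to 11.3%), TRQ-CTG9-1 and TRS-ACT1-1 at 8 and 5 bp before their ends and TRP-AGG6-1 at 144 bp before. The call of TRP-AGG6-1 also starts the listed transfer RNA gene TRR-CCT3-1. Histone copies were called in 5 of 87 (5.75%, 2.48 to 12.8%): H1-12P, H2AC5P, H3C9P, H3P43 and H4C10P. Zinc finger copies were called in 9 of 84 (10.7%), all among the 26 transcribed_pseudogene entries. Copies in segmental duplications were called in 24 of 172 (14%), 21 of them among 94 transcribed_pseudogene entries.

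Several families had no call or a single one. No call was found at 465 nuclear copies of mitochondrial DNA, which allows a share of up to 0.645%, at 576 chemosensory receptor copies (up to 0.521%), at 206 copies of splicing and hnRNP genes (up to 1.46%), at 47 ferritin copies (up to 6.38%) or at 13 HLA copies (up to 23.1%). Glycolytic enzyme copies had 1 call among 102, at TPI1P2, 31 bp inside its end, and translation factor copies 1 among 162, at EEF1A1P6. The 3 HMG copies called among 178 were HMGB1P10, HMGB2P1 and HMGN3P1, at 21, 364 and 19 bp inside their ends. The globin relics HBBP1, between the fetal and adult beta-like globin genes, and HBZP1 and HBAP1 in the alpha-globin cluster had no inward call in this erythroid line. Of 15 pseudogene RNAs that other work has studied, none had a call.

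**Figure D5:**
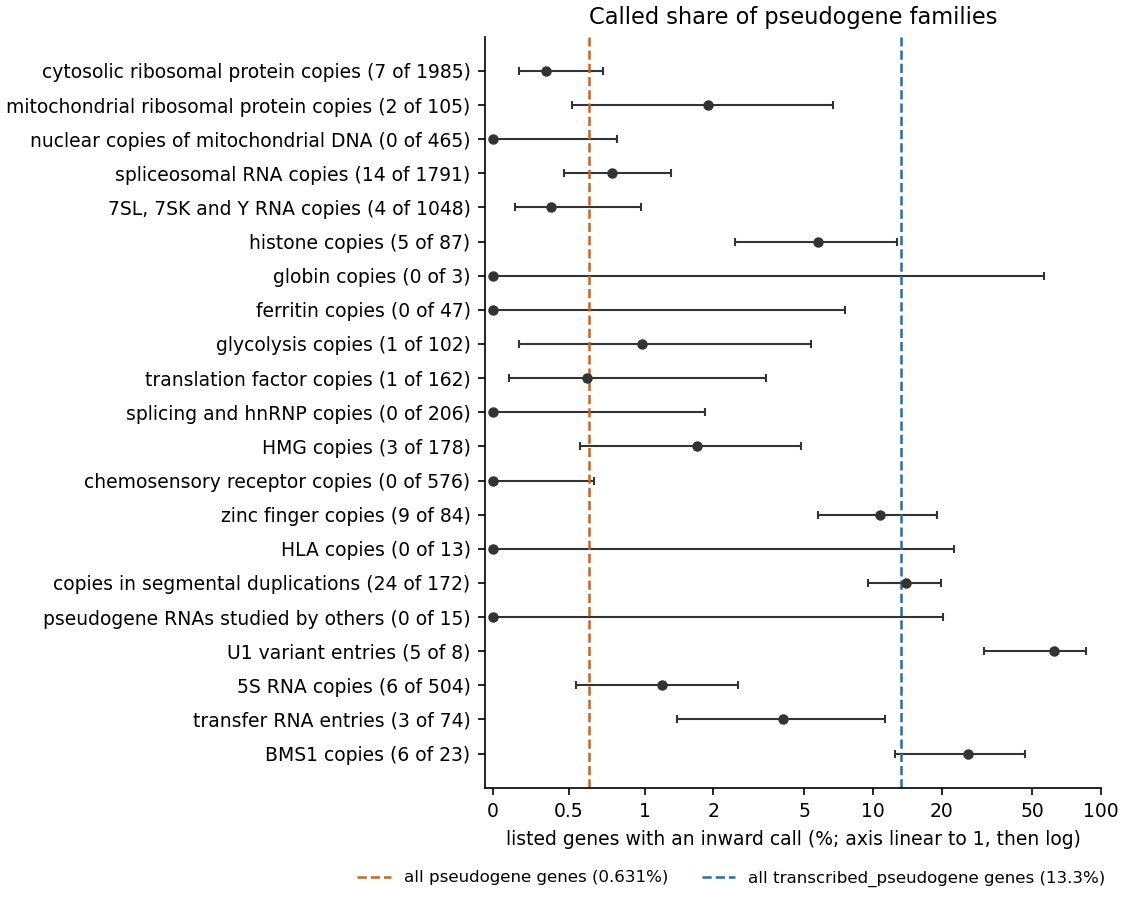
Called share in percent of each pseudogene family (axis linear to 1, then log), with the number called of those listed beside each name; error bars are 95% Wilson intervals and dashed lines are the shares over all genes of each biotype, 0.631% and 13.3%. Cytosolic ribosomal protein copies lie at 0.353% and copies in segmental duplications at 14%.

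By chromosome, the count of members was highest on chromosome 7, with 36 members, 3.91% of its 920 listed pseudogenes, and 30 of its 100 transcribed_pseudogene entries. Over all chromosomes the called share was 1.58% of listed pseudogenes and 13.3% of transcribed_pseudogene entries. Chromosomes 16, 19 and 22 had shares of 3.31%, 3.3% and 3.26% of their listed pseudogenes. Chromosome 21 held none among 218, of which 12 were transcribed_pseudogene entries. Differences between chromosomes were not tested. More than 1 inward call was found at 24 members (9.34%, 6.36 to 13.5%), and 4 had calls at both ends, 3 of them pseudogene members. LOC124900789 had 3 calls. AFG3L1P, AHSA2P, ANKRD18CP, CCT6P1, CENPBD1P, CENPBD2P, DDX12P, DPY19L2P1 and FAM86JP had 2, as did others. In 10 cases a call was nearest for 2 members, such as SLC7A5P1 and SMG1P2, so that the 257 members rest on 247 calls.

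Sequence around the calls could be read where a call fell in the promoter window of a coding or long noncoding RNA gene, which was so for the nearest call of 49 of 257 members, 34 of them opposite to that gene and 15 on its strand. The dinucleotide CA with C at the called base was present at 17 of 46 such calls (37.0%, 24.5 to 51.4%), and at 4131 of 11083 calls in all windows (37.3%). CA with A at the called base was present at 2 of 46 and at 165 of 11083 (1.49%). Over all windows CA, counted from the called base, was the most frequent dinucleotide, and the next was AG with 10.5%. Positions were kept as deposited. In the 50 windows with a member call, on both strands, GGGCGG was found in 32 (64.0%, 50.1 to 75.9%) against 44.9% of all 34789 windows, CCAAT in 12 (24%, against 34.6%), TATAAA in 3 (6.0%, against 11.6%) and AGATAA, the motif of GATA factors, in 2 (4.0%, against 10.4%). The median number of CG in a window was 27 against 14. These are descriptions of windows chosen by their calls, and most of them belong to coding promoters. For 6 of the 193 members counted as over 1000 bp (CFL1P1, DBIL5P, INGX, LOC107985098, LOC124904757 and SMPD4BP) the call lay in the promoter window of a coding gene whose outer end is farther away.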

How the data were processed

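PRO-cap libraries of wild-type HUDEP-2 cells were aligned and handled with BWA 0.7.16a, Picard, SAMtools 1.17 and deepTools 3.5.4 on hg38, per the submitters' processing notes. The calling threshold, the handling of reads that match several places and the merging of replicates were not given in the sources used here. Both deposited lists give 1-base positions, which hold other values than measurements, and a score that the authors deposited as 0 for every call. Of 26395 calls, 63 outside chromosomes 1 to 22 and X were left out.

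Genes and biotypes came from the RefSeq table of GRCh38.p14 (58419 genes, of which 19821 code for protein, once 679 entries of other scaffolds had been dropped), without strand. An inward call was a forward call within 500 bp of the lower end or a reverse call within 500 bp of the upper end, up to the opposite end of the gene. The start of another gene was read by the same rule. A member's distance to coding genes was that of its nearest call to the nearest outer end of a protein-coding gene, with a limit of 1000 bp. Divergent partners lay 0 to 300 bp upstream, and close calls within 10 bp of the end. Parents were matched by symbol (a coding symbol followed by P and a number). Shares have 95% Wilson intervals, and a share of 0 is given the limit of 3 counts. Measures beyond membership were compared with a two-sided Fisher's exact test (Benjamini-Hochberg over 9 comparisons, threshold 0.05). The odds ratios of the biotypes were compared with Zelen's exact test (over 3 measures). Both ran in scipy 1.17.1 and pandas 2.3.3. The call within 10 bp uses the offset that also chose the members, so tests of that measure are not independent of the choice. Genes that share a call are linked, as are members whose partner is the call of another member, which these tests ignore. The steps were tested on simulated data.

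Members, lists and tests were chosen with earlier results of these data known. Named were all called members of a family of up to 8, or the first 6 by alphabet; the 12 members of each biotype over 1000 bp and the 8 under it with the call nearest the end; the 10 with most calls; and the 3 globin relics. Other genes were named after their values were seen. Some items that the rule names are left out of the text. Alternatives were other windows, partner and offset limits, coding distances, gene lengths, subsets, calls as units, and positions moved 1 base.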

Additional observations from a re-analysis of the deposited data

Results flagged for a closer look

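The contrast between members under and over 1000 bp from a coding gene end differed between the biotypes in 2 measures by Zelen's exact test of equal odds ratios. For a call within 10 bp of the gene end the exact test gave an adjusted p of 0.0156, with 9.09% against 41.1% among pseudogene and 31.0% against 21.7% among transcribed_pseudogene members. This measure uses the offset that also chose the members, so its test is not independent of that choice. For a divergent partner the exact test gave an adjusted p of 0.0184, with 50% against 20.5% and 50% against 56.7%. Of the pseudogene members 35 of 95 are 200 bp or shorter, and no transcribed_pseudogene member is. Without these short genes the exact test, on fewer pseudogene members, gave an adjusted p of 0.111 for both. Both differences kept their direction and most of their size. The log odds ratio of near against far members, transcribed_pseudogene minus pseudogene, went from -1.62 to -1.37 for the partner. For the close call it went from 2.43 to 2.21. The part of gene length in the difference was not tested further.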

How the results depend on the processing

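Of 112 alternative values, 92 kept their direction and side of the threshold, or stayed within 1.5 times for counts. The partner difference between biotypes held in all 10 alternatives (16.2 to 36.9 points, highest adjusted p 0.00818, Fisher's exact test) and the host gene difference in all 8 (-38.7 to -29.9 points). Members under 1000 bp alone were not among these alternatives, and there a partner was present for 50% of both biotypes. Far members longer than 5000 bp were not among them either, with 56.1% of transcribed_pseudogene and 57.1% of pseudogene members. Pseudogene members numbered 63 with a window of 200 bp and 30 among genes of at least 1000 bp. Differences below are in percentage points, transcribed_pseudogene minus pseudogene or under minus over 1000 bp, with p by the same exact test, and where none is given it missed the threshold.

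With a window of 200 bp the biotypes differed by -24.1 in close calls (0.00298), 14.9 in nearness to coding genes (0.0307) and 1.19 in calls that start another gene, and near and far members by -5.96 in host genes. With a window of 1000 bp nearness differed by -2.95 and close calls of the biotypes by -1.07, against -9.61 with the main window of 500 bp. Close calls differed between biotypes by -15.5 at a limit of 5 bp (0.0107), 17.3 at 50 bp (0.0211), -19.4 among far members (0.00708) and 2.41 without genes of 200 bp or shorter, where nearness differed by -0.741 and close calls of near and far members by 0.967. Partners of near and far members differed by 18.5 at 500 bp (0.0311), 29.5 for pseudogene alone (0.0166) and -6.67 for transcribed_pseudogene alone. Close calls differed by -32.0 for pseudogene alone (0.00954) and 9.29 for transcribed_pseudogene alone, for which host genes differed by -1.79 and calls that start another gene, a difference built into the distance, by 14.8. The cause of these changes was not tested.

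Transcription below the unknown calling threshold leaves no call. No value per replicate was used, so leaving out a replicate was not run and no paired analysis was possible because there is 1 group. The planned count at annotated 5' ends was not run because the tables used here give no strand for pseudogenes. Reads of near-identical copies limit every statement on a single copy.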
